A study of Mus musculus with 8 samples.

Results

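The genes of the circadian clock were followed in whole mouse skin on 8 one-colour arrays. The members were 10 named genes, found through the RefSeq accession of each probe: Bmal1 (listed as Arntl in the RefSeq table used), Clock, Npas2, Per1, Per2, Per3, Cry1, Cry2, Nr1d1 and Dbp. They make up 10 of 20284 named genes on the array and are covered by 11 probes, with 2 for Dbp. The samples were 4 skins that the labels call DTG and 4 that they call Control, all labelled male. Musashi1, a regulator of mRNA translation, is overexpressed according to the series title. The labels neither spell out DTG nor give a promoter, strain, age or hour of sampling, nor do they say that each array is a separate animal.

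The clock is a feedback loop of transcription that runs in nearly every cell. BMAL1, paired with CLOCK or its relative NPAS2, activates the Per, Cry, Nr1d1 and Dbp genes through E-box motifs. PER and CRY proteins then repress that activation, and NR1D1 represses Bmal1. As a result Bmal1 and Npas2 mRNA run opposite in phase to Nr1d1, Dbp and Per mRNA over the day in mouse tissues, skin included. Their levels therefore depend strongly on the hour at which a tissue is taken.

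A level is given below as log2 signal minus the 75th percentile of its array. Levels of different probes were not set against each other. Between the groups, array measures differed. Of non-control spots, 69.8% ± 1.23 were well above background on DTG arrays and 82.7% ± 2.64 on Control arrays (SD, n = 4 each). The exact permutation p was 0.0286 (two-sided), or 0.0381 after adjustment over 4 array measures. All arrays lay on 1 slide, with DTG in one row and Control in the other, so that an effect of the row and one of the group cannot be told apart. Msi1, which encodes Musashi1, was higher in DTG by 6.81 on the log2 scale (SE 1.02, limma adjusted p = 0.0029, 3 DTG and 4 Control arrays with a value). Keratins of the epidermis (Krt5, Krt14, Krt1 and Krt10) were well above background on all 8 arrays. Although all are labelled male, Xist, the RNA of the inactive X chromosome, was high (0.08 to 0.73) and the Y-linked Eif2s3y low on DTG 1, 3 and 4 and on Control 2 and 4. Xist was low (-8.56 to -6.89) and Eif2s3y high on DTG 2 and on Control 1 and 3. Since separate animals are not stated, p-values speak to the spread among arrays, part of which may be technical.

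No clock gene passed the test between DTG and Control skin. Of the 10 members, 9 passed the filter on dim probes, and 0 of the 9 were higher and 0 lower by limma at an adjusted p under 0.05. With an unadjusted p under 0.05 there was 1, Cry1. Over all 17766 genes tested the share called was 32.4%, with 11.1% higher and 21.3% lower in DTG. The median log2 fold change of the 9 members, DTG minus Control, was 0.22, beside -0.15 over all genes tested. Groups did not overlap for 1 of the 9 members, again Cry1, against 34.6% of all genes tested. For Cry1 this rested on 1 DTG and 2 Control values, where a lack of overlap comes easily, while most genes had 4 values per group. What stood out instead was single arrays: Control 3 had high Dbp, Per3 and Per2 and low Bmal1, and DTG 2 had high Dbp. DTG 2 was also the highest DTG array for Per3, where it was not well above background. For Per2 it was highest by less, at -1.24 against -1.55 on DTG 1.

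**Figure D1:**
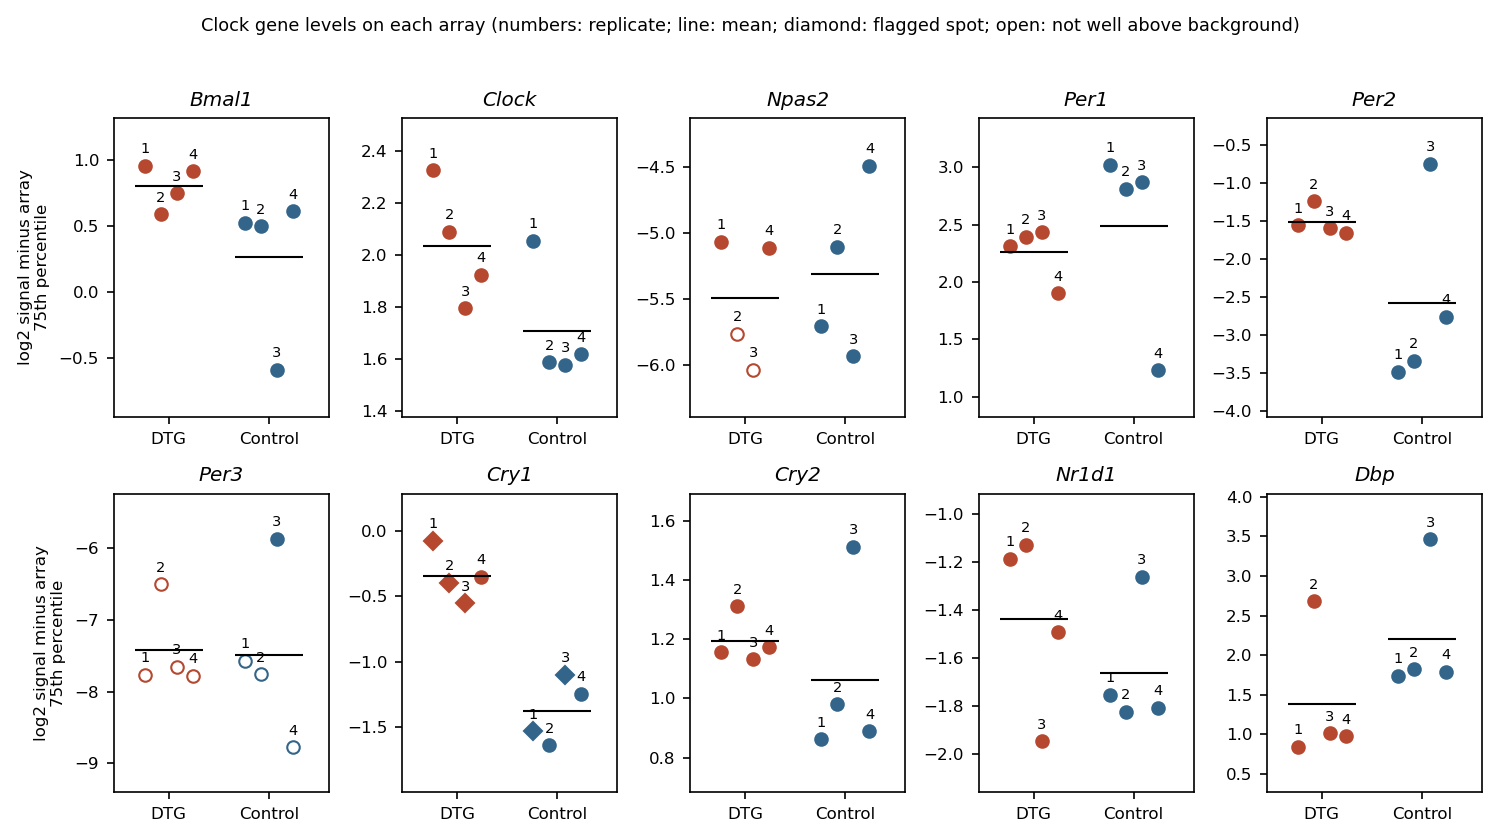
Levels of the 10 clock genes on each array, as log2 signal minus the 75th percentile of the array on the y axis (each panel has its own range), with DTG left and Control right. Red (DTG) and blue (Control) points are arrays with their replicate number, lines are group means, diamonds are spots flagged as outliers and open points were not well above background; Control 3 is the lowest Control array for Bmal1 and the highest for Per2, Per3, Cry1, Cry2, Nr1d1 and Dbp.

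Among the activators, Bmal1 had levels of 0.96, 0.59, 0.75 and 0.91 on DTG 1 to 4, against 0.52, 0.50, -0.59 and 0.61 on Control 1 to 4. Control 3 lay more than a whole log2 unit under the other Control arrays, and the top Control array just passed the lowest DTG array. The log2 fold change was 0.54 (SE 0.26, n = 4 per group, limma adjusted p = 0.141, 95% interval -0.05 to 1.13). Without Control 3 it was 0.26 (limma adjusted p = 0.160).

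Clock, the partner of BMAL1, had levels of 2.33, 2.09, 1.80 and 1.92 in DTG, against 2.05, 1.59, 1.58 and 1.62 in Control. Control 1 alone lay inside the DTG range. Clock read 0.32 on the log2 scale, DTG minus Control (SE 0.15, limma adjusted p = 0.137, 95% interval -0.03 to 0.68). Without Control 1 it was 0.44 and passed (limma adjusted p = 0.0454).

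Npas2, the CLOCK relative, was near the lower limit of the arrays, with levels of -5.06, -5.76, -6.03 and -5.11 in DTG and -5.71, -5.10, -5.94 and -4.49 in Control. It was well above background on 2 of 4 DTG and 4 of 4 Control arrays. The groups overlapped throughout, with a log2 fold change of -0.19 (SE 0.35, limma adjusted p = 0.702), which turned to 0.28 when arrays were scaled on spike-in spots and to 0.09 without Control 4.

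Among the repressors, Per1, which besides the clock responds to cAMP and glucocorticoid signals, had levels of 2.31, 2.39, 2.43 and 1.90 in DTG, against 3.02, 2.81, 2.87 and 1.23 in Control. Control 4 was far below all other arrays, while the 3 remaining Control arrays lay above every DTG array. The log2 fold change was -0.22 (SE 0.37, limma adjusted p = 0.667, 95% interval -1.08 to 0.63). Without Control 4 it was -0.64 and passed (limma adjusted p = 0.0193), and on the spike-in scale it was 0.24.

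Per2, the period gene whose protein enters the repressor complex with CRY, had levels of -1.55, -1.24, -1.59 and -1.66 in DTG, against -3.49, -3.34, -0.74 and -2.76 in Control. The DTG arrays were close together, 3 Control arrays lay below all of them, and Control 3 lay above all of them. The log2 fold change was 1.07 (SE 0.54, limma adjusted p = 0.159, 95% interval -0.16 to 2.31). Without Control 3 it was 1.69 with an SE of 0.20 and passed (limma adjusted p = 0.0019), so that this 1 array decided the call.

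Per3, the period gene that mice can lose while keeping a rhythm, was not tested, because its probe was well above background only on Control 3. Its levels were -7.76, -6.50, -7.65 and -7.78 in DTG, against -7.57, -7.76, -5.87 and -8.78 in Control. The highest arrays of the groups were again DTG 2 and Control 3. With no filter on dim probes the log2 fold change was 0.07 (SE 0.58, limma adjusted p = 0.938).

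Cry1, a cryptochrome repressor, had the smallest p of the members. With flagged spots included, its levels were -0.08, -0.40, -0.55 and -0.35 in DTG, against -1.53, -1.64, -1.10 and -1.25 in Control, and the lowest DTG value was above the highest Control value. The scanner software had flagged the spot as non-uniform on 5 of 8 arrays, so that the fit rested on 1 DTG array (DTG 4) and 2 Control arrays (2 and 4). On these DTG exceeded Control by 1.09 on the log2 scale (SE 0.26, limma adjusted p = 0.0545), a ratio of 2.13. With the flagged spots kept it was 1.04 (SE 0.15) over all 8 arrays and passed (limma adjusted p = 0.0018).

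Cry2, the other cryptochrome, had levels of 1.16, 1.31, 1.13 and 1.17 in DTG, against 0.86, 0.98, 1.51 and 0.89 in Control. Control 3 was highest of all, and the other 3 Control arrays lay below the DTG arrays. The log2 fold change was 0.13 (SE 0.15, limma adjusted p = 0.523, 95% interval -0.21 to 0.48), and 0.28 without Control 3.

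Nr1d1, the nuclear receptor REV-ERBα that represses Bmal1, had levels of -1.19, -1.13, -1.95 and -1.49 in DTG, against -1.75, -1.83, -1.26 and -1.81 in Control. Control 3 lay above the other Control arrays, and DTG 3 lay below all arrays. DTG minus Control was 0.22 on the log2 scale (SE 0.21, limma adjusted p = 0.428, 95% interval -0.25 to 0.69).

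Dbp, a transcription factor that carries the rhythm to output genes and is itself one of the strongest rhythmic mRNAs, had levels of 0.84, 2.68, 1.01 and 0.97 in DTG, against 1.74, 1.82, 3.47 and 1.79 in Control. In each group 3 arrays were close together and 1 was far higher, DTG 2 by 1.74 and Control 3 by 1.68 over the mean of the others. The log2 fold change was -0.83 (SE 0.51, limma adjusted p = 0.241), with a 95% interval for the ratio of DTG to Control from 0.251 to 1.27, and it was -0.41 without Control 3 (limma adjusted p = 0.510). The second Dbp probe showed the same high arrays, with -0.82, 1.69, -0.34 and -0.56 in DTG, against 0.31, 0.40, 2.71 and 0.22 in Control. Over the arrays of high Xist (3 DTG, 2 Control), which leave out both high arrays and Control 1, Dbp was lower in DTG by 0.86 on the log2 scale (SE 0.11, limma adjusted p = 0.0142) and Per2 higher by 1.45 (SE 0.19, limma adjusted p = 0.0151).

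**Figure D2:**
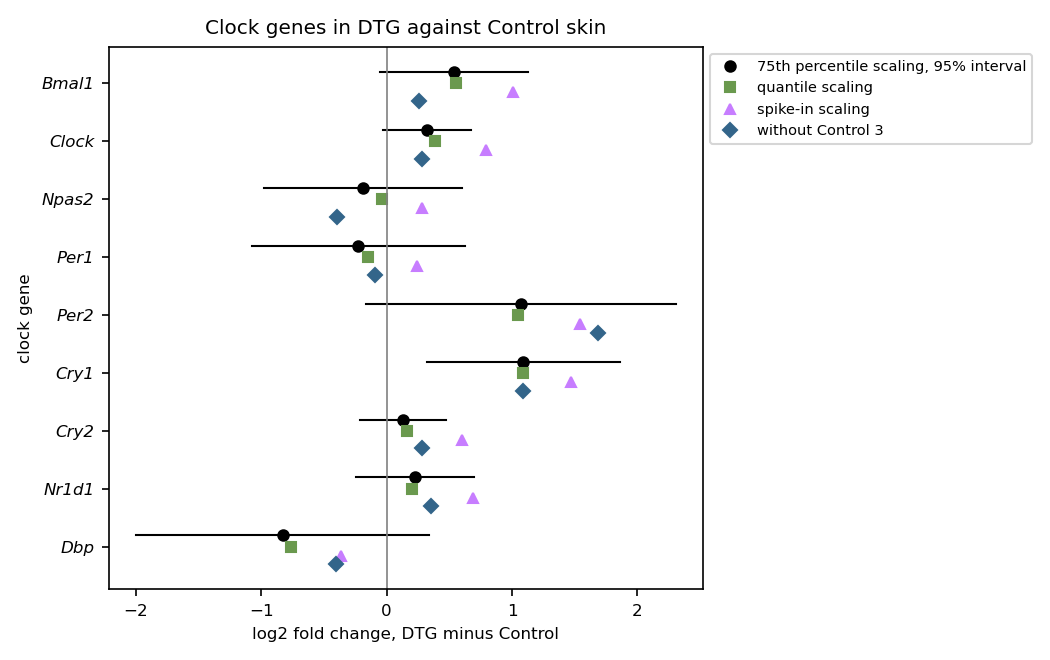
Log2 fold change of the 9 tested clock genes, DTG minus Control, on the x axis. Black points with lines are the fit with its 95% interval, and coloured points are the same value with quantile scaling, with spike-in scaling and without Control 3; all black intervals except that of Cry1 cross 0, and Per2 moves from 1.07 to 1.69 without Control 3.

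The scale of the arrays bore on these values. Scaling on spike-in spots adds 0.47 to the log2 fold change of every gene with values on all arrays. With arrays scaled on their spike-in spots the median log2 fold change of all genes was 0.32 in place of -0.15, and the share of calls that were lower in DTG was 7.51% in place of 65.6%. The median of the 9 members was then 0.69, and 4 of them were called higher, where 33.7% of all genes were called higher: Bmal1 at 1.01, Clock at 0.79, Cry2 at 0.60 and Nr1d1 at 0.69 (limma adjusted p = 0.0277, 0.0050, 0.0271 and 0.0400). With quantile scaling 0 were called. In the other settings named above, the share of all genes called was 31.9% with flagged spots kept, 14.6% over the arrays of high Xist, 29% without Control 1, 22.9% without Control 3 and 28.4% without Control 4.

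The spread among arrays of 1 group was wide for several members. Among the 4 Control arrays the SD of the level was 1.27 for Per2, 0.84 for Dbp, 0.84 for Per1, 0.65 for Npas2 and 0.57 for Bmal1, where the median over genes and groups was 0.18. By this SD Per2 ranked 96, Dbp 398 and Per1 404 of 17738 genes with a Control SD. Control 3 was singled out from these same values, so a smaller SD without it follows for genes in which it was the outlying array. Without Control 3 the SD was 0.04 for Dbp, 0.04 for Nr1d1, 0.06 for Bmal1, 0.06 for Cry2 and 0.38 for Per2. It was 0.61 for Npas2 and 0.26 for Clock. For Per1 it was 0.98, since its low array was Control 4. With all arrays, Clock had an SD of 0.23 in both groups.

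**Figure D3:**
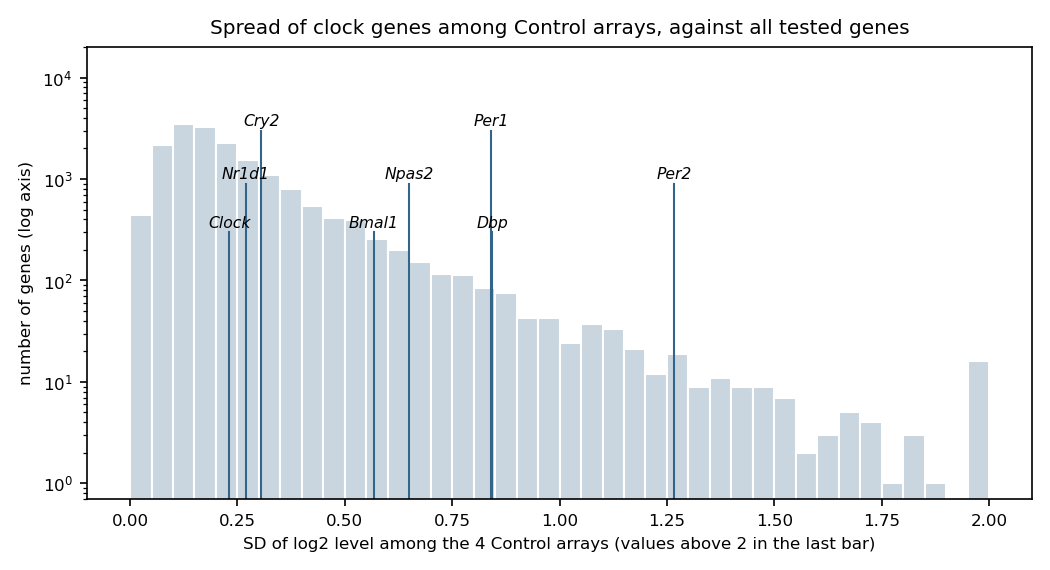
Histogram of the SD of log2 level among the Control arrays for 17738 tested genes, with the number of genes on a log y axis and values above 2 in the last bar. Vertical lines mark the 8 clock genes with values on all 4 Control arrays; Per2, at 1.27, and Per1 and Dbp, both at 0.84, lie in the sparse right part.

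Control 3 lay at least 1 log2 unit away from every other Control array in 3 of the 8 members with 4 Control values (Bmal1, Per2 and Dbp). Over all tested genes that share was 0.527% for Control 3, and 0.292% to 1.12% for the other Control arrays. Control 3 was the highest Control array in 4 of the 8 (Per2, Cry2, Nr1d1 and Dbp), against 19.7% of all genes. It was the lowest in 3 of the 8 (Bmal1, Clock and Npas2), against 14.7%. Of these 3 only Bmal1 was far below the other Control arrays. Clock read 1.576 on Control 3, just under 1.587 on Control 2. Npas2, near the lower limit of the arrays, read -5.94 on Control 3 and -5.71 on Control 1. Control 4 lay at least 1 log2 unit away from every other Control array in 1 member, Per1. DTG 2 was the highest DTG array in 4 of 8 members, against 18% of all genes, and lay at least 1 log2 unit away in 1, Dbp, against 1.16% of all genes. Both arrays are among the 3 of low Xist. The third, Control 1, had Dbp and Bmal1 close to those of Control 2 and 4.

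Genes that surround the core loop showed where the pattern reached. Of 11 loop partners 0 were called higher and 1 lower by limma, with a median log2 fold change of -0.35. On the spike-in scale the median of the 9 partners with values on all arrays was 0.27. Nr1d2, the REV-ERBβ gene, had levels of -1.73, -0.32, -2.26 and -2.49 in DTG (the spot of DTG 2 flagged and left out of the fit), against -1.20, -1.42, 0.03 and -1.62 in Control, and its log2 fold change was -1.11 (SE 0.40, limma adjusted p = 0.0677). Bhlhe41, a repressor at E-boxes, read 0.38 (limma adjusted p = 0.0564) and Rora, a nuclear receptor that activates Bmal1, 0.44 (limma adjusted p = 0.115).

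Dbp belongs to a family of PAR-domain factors with Tef and Hlf, which bind the D-box motif. Hlf had levels of -3.63, -2.06, -3.37 and -2.74 in DTG, against -2.50, -2.74, -1.15 and -2.61 in Control. Its highest arrays were those of Dbp. Tef had 1.84, 2.40, 2.01 and 1.67 in DTG, against 2.44, 2.25, 3.32 and 2.10 in Control (the spot of Control 1 flagged and left out of the fit). Ciart, a repressor of the BMAL1 complex, had -1.87, -1.89, -1.53 and -2.33 in DTG, against -1.53, -1.49, -0.70 and -1.80 in Control, so that it was high on Control 3 but not on DTG 2. Tef and Ciart were chosen after their values were seen. Of the partners with 4 Control values, Control 3 was highest in 5 of 10, against 19.7% of all genes.

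**Figure D4:**
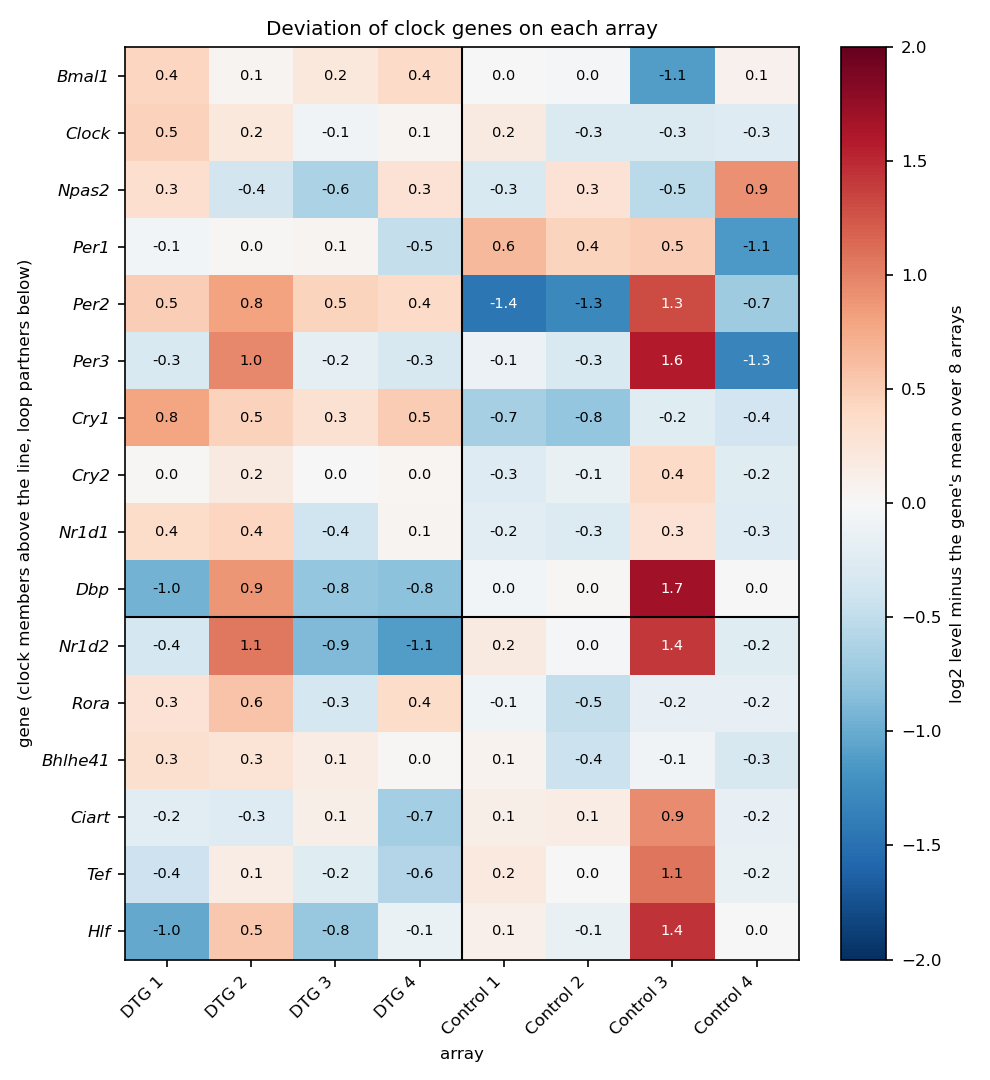
Deviation of each gene's log2 level from its mean over the 8 arrays, flagged spots included, as colour and printed value. Red is above and blue below the mean, with the 10 clock members above the line and the 6 loop partners described in the text below it, and DTG left of Control; DTG 2 and Control 3 are red for Dbp, Per3, Per2, Nr1d2 and Hlf, and Control 3 is blue for Bmal1. Per2 is above its mean on every DTG array, and Per3 was not well above background on DTG 2.

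The profile over all 8 arrays was compared by the root mean square difference between levels centred on each gene's mean, over 16445 genes with values on all arrays. Nearest to Dbp were Gpnmb at 0.28 and Hlf at 0.29, then Rgs22 at 0.33, Nat8 at 0.34 and Nat8f6 at 0.38. Nearest to Bmal1 were Olfr713 at 0.15, Zfp462 at 0.17, Asb2 at 0.18, Ncoa7 at 0.22 and Olfr871 at 0.23. Rgs22 read -7.44, -6.04, -7.60 and -7.73 on DTG 1 to 4. The lowest levels well above background there were -5.51, -5.25, -5.35 and -5.49, so that its DTG values cannot be told from background. Olfr713 (-6.26 to -5.11) and Olfr871 (-6.13 to -4.78) were also near the lower limit of the arrays. Clock was 454th in nearness to Bmal1 and Dbp 16209th. These are descriptions of 8 arrays that share a slide, and in each of the nearest genes named Control 3 was the array farthest from the gene's mean.

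Promoter sequences from RefSeq (GRCm38.p6) were found for 9 of the 10 members, and the 250 bases before the gene start were searched on both strands. The motifs were the E-box CACGTG, its variant CACGTT, the D-box TTATGTAA or TTACGTAA, the ROR core AGGTCA, the cAMP element TGACGTCA and its core TGACG, which the complete element also holds. A member was counted if the window of any of its listed starts held the motif, while the shares are over all single promoter entries. An E-box was in the windows of Per1 and Cry1, against 6.02% of all promoters, and CACGTT in those of Cry1, Cry2 and Nr1d1, against 3.85%. A D-box, found in 0.931% of all promoters, was in that of Per3, where it occurs 2 times, starting 205 and 158 bases before the start. The core TGACG, in 17.8% of promoters, was in Per1, Cry1 and Cry2, and AGGTCA, in 14.0%, in Per1 and Clock. Per1 has 2 listed starts and Clock 3. The E-box of Per1 and the AGGTCA of both genes were not in the windows of all their starts. The complete cAMP element, in 1.55%, was in no member's window. No motif of the list was found in the windows of Bmal1, Npas2 and Dbp. Only these 250 bases were searched, so that sites elsewhere in or near a gene would not be seen.

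The windows of Per3, Cry1 and Per1 are shown 5′ to 3′ on the gene's strand. Per3 held the D-box matches, Cry1 had the smallest p of the members, and Per1 was the repressor low on Control 4. Capitals mark E-box, CACGTT, D-box and TGACG matches on either strand. The window of Per3 is chr4:151044666-151044915 on the minus strand, that of Cry1 chr10:85185055-85185304 on the minus strand and that of Per1 chr11:69098699-69098948 on the plus strand, the first of 2 Per1 starts listed. A match of letters describes the window and does not show binding.
Per3: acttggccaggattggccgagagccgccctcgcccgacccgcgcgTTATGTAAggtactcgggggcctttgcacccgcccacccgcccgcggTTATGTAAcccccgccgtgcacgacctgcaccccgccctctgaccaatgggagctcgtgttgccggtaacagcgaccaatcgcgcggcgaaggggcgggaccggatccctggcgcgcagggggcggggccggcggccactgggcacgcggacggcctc
Cry1: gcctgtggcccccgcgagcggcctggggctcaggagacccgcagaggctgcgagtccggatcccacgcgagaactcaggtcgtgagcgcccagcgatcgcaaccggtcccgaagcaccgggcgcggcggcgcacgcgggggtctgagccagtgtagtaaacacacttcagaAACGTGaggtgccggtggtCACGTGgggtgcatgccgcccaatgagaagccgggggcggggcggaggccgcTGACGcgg
Per1: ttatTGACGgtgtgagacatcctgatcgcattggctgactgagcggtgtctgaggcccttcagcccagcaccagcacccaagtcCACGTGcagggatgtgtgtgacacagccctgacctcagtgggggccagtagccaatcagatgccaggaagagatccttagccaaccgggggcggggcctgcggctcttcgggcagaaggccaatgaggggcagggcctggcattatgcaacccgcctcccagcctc

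Genes that modify clock proteins were called about as often in each direction as all genes, of which 11.1% were higher and 21.3% lower. Genes that the clock drives were called about as often in total, against 32.4% of all genes, but more of them were higher than lower. Of 17 modifiers 2 were higher, 3 lower and 12 did not pass, with a median log2 fold change of -0.11. Btrc, a ubiquitin ligase subunit that targets PER proteins, fell by 0.75 (SE 0.10, limma adjusted p = 0.0013). Nono, a PER-associated RNA-binding protein gene, fell by 0.40, and Csnk2a1, a casein kinase 2 subunit gene, fell by 0.47. On the spike-in scale Btrc read -0.28, Nono 0.07 and Csnk2a1 -0.0047, and the median of the modifiers was 0.36. Of 12 output genes rhythmic in many tissues, 3 were higher, 1 lower and 8 did not pass, with a median of -0.01 that also turned positive on the spike-in scale. Coq10b rose by 0.84 (SE 0.16, limma adjusted p = 0.0061), Noct, the deadenylase-like Nocturnin gene, by 0.85 (SE 0.22, limma adjusted p = 0.0224) and Lonrf3 by 0.71 (SE 0.18, limma adjusted p = 0.0193). Wee1, a mitotic inhibitor kinase under clock control, fell by 0.90 (SE 0.21, limma adjusted p = 0.0133). Control 3 was the highest Control array in 7 of the 11 output genes with 4 Control values, against 19.7% of all genes. It lay at least 1 log2 unit away from every other Control array in 0 of the 11. Control 4 was the lowest Control array in 7 of the 11, against 33.4% of all genes.

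Lists that bear on handling and on cell makeup were read beside the clock. Of 10 glucocorticoid-responsive genes 0 were called by limma, with a median of -0.03. Klf9 (log2 fold change -0.39, limma adjusted p = 0.0843) and Dusp1 (0.58, limma adjusted p = 0.0999) were the 2 with an unadjusted p under 0.05. Tsc22d3 read -0.22 and Zbtb16 -0.16. Control 4, the array of low Per1, was the lowest Control array in 9 of the 10 glucocorticoid-responsive genes, against 33.4% of all genes. Control 1 was the highest in 6 of the 10, against 38.5%. A link between these levels and Per1 was not tested. Of 14 immediate early genes tested 6 were higher and 0 lower, against 11.1% and 21.3% of all genes, with a median of 0.52. Zfp36 rose by 1.32, Fosl1 by 2.41, Ier3 by 1.20 and Egr1 by 0.70. Of 15 cycling cell genes 0 were higher and 14 lower, against the same shares of all genes, with a median of -1.03, among them Kif23, Nusap1, Bub1b and Bub1, which fell by 1.39, 1.03, 1.44 and 1.36. The medians of both lists kept their sign on the spike-in scale, while 2 of the cycling genes called lower, Ccnb1 and Aurka, read 0.03 and 0.07 there; both were named after their values were seen.

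In whole skin, fewer cells of a type and less RNA per cell cannot be told apart. The marker counts stand beside 21.3% of all genes called lower, a share that the muscle, endothelial and leukocyte counts were near. Summed signal, in units of the array's 75th percentile, was 163 to 173.8 on DTG arrays and 191 to 223.3 on Control arrays for 10 skeletal muscle markers, of which 3 were lower. For 8 adipocyte markers, 6 of them lower, it was 66.3 to 70.6 in DTG and 84.1 to 96.8 in Control. For 9 keratinocyte markers, 1 higher and 5 lower, it was 120.2 to 144.4 in DTG and 144.5 to 189.4 in Control, and for 7 dermal fibroblast markers, 3 of them lower, 112.2 to 134.5 in DTG and 131.2 to 182.7 in Control. Endothelial markers (6) summed to 5.39 to 7.28 in DTG and 6.65 to 8.23 in Control and leukocyte markers (6 tested of 8) to 50.02 to 60.06 in DTG and 56.6 to 63.8 in Control, with 1 of each list lower. All tested markers of these lists were well above background on every array. Of 9 hair follicle markers tested (10 listed) 0 were called by limma, and their sums were 1.96 to 2.20 in DTG and 2.12 to 2.47 in Control. Of the 9, Krt25 was well above background on 1 of 4 DTG and 3 of 4 Control arrays and Krt33a on 2 of 4 DTG and 4 of 4 Control arrays. The 7 others were well above background on every array and were chosen after the values were seen. Their mean deviation was 0.13, -0.26, -0.35 and -0.14 on DTG 1 to 4, against 0.08, 0.08, 0.43 and 0.03 on Control 1 to 4. On the spike-in scale the medians of the muscle, adipocyte, keratinocyte, fibroblast and hair follicle lists turned positive. The part of cell makeup in the clock gene values was not tested, and the labels give no sampling hour to test.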

How the data were processed

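Total RNA of whole skin was hybridised to 8 one-colour Agilent arrays. The authors deposited scanner tables whose processed intensity is linear and background-corrected. Agilent Feature Extraction wrote them, in version 11.5.1.1 per the file headers, while the submitters' processing notes name 10.7. Other deposited columns, coded 0 or 1, mark outlier, saturated and well-above-background spots and were used unaltered. Accessions were matched without versions to RefSeq genes of assembly GRCm38.p6, which served for names and promoter sequences only. This named 26762 of 55681 probes. Signals were put on the log2 scale, after removal of outlier-flagged spots each array's 75th percentile was taken off, and probes well above background on at least 3 of 4 arrays of a group were kept. The brightest kept probe stood for a gene. The comparison of DTG to Control used limma (3.58.1, two-sided) in R 4.3.3 with data.table and Benjamini-Hochberg adjustment over 17766 genes. The fit was tested on simulated data. The deposited value table, a linear intensity, equalled the processed signal to a relative 0.001 in 99.6% of its values and served as an alternative.

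The groups came from the tissue labels. Replicates were numbered in deposit order and pair no samples. Precision is limited by how many arrays there are. The members, the gene lists and the alternatives were chosen with earlier results of these data known, except 3 alternatives that were added later. Genes outside the members were named if they had one of the 4 smallest p-values of their list, or were one of the 5 nearest in profile to Bmal1 or Dbp, leaving out predicted and clone names. Exceptions are stated, and some genes that the rule names are not reported here. The normexp correction used each spot's median signal, where a mean had been planned.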

Additional observations from a re-analysis of the deposited data

Results flagged for a closer look

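In 8 of 20 sets of 4 arrays (1 probe in 1 group), 1 array lay farther from its group than Dixon's 95% criterion of 0.829 allows. Chance flags about 5% of sets, and over all tested genes 5.75% of DTG sets and 4.72% of Control sets passed it. Of the 8, which hold sets of both groups, 2 were DTG 2 and 4 were Control 3. Over all genes Control 3 was the outlying array in 96 of the 824 Control sets past the criterion. DTG 2 was the outlying array in 269 of the 1005 DTG sets past it. DTG 2 was high for Dbp, at a level of 2.68, and for Per3, at -6.50, where the probe was not well above background. Control 3 was high for Dbp on both probes, at 3.47 and 2.71, high for Nr1d1 at -1.26, and low for Bmal1 at -0.59. Control 4 was low for Per1 at 1.23, and Control 1 was high for Clock at 2.05. The 2 Dbp probes measure the same mRNA and are not separate evidence.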

How the results depend on the processing

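Of the 9 tested members 0 were called higher and 0 lower, and 1 was called higher under each of 7 single changes. Cry1 was that gene with median scaling, with normexp background correction, with probes above background on all 8 arrays, with outlier-flagged spots kept, with Xist class as a covariate and with trended robust eBayes. Except with flagged spots kept, these rest on the same 3 Cry1 spots, all from arrays of high Xist, so that the covariate could not act on Cry1. Per2 was it over the arrays of high Xist, where 1 member, Dbp, was also called lower. Spike-in scaling called 4 higher. Leaving out 1 array gave 0 to 1 called higher (Clock without Control 1, Per2 without Control 3) and 0 to 1 called lower (Per1 without Control 4). In settings added after the data were seen, keeping outlier-flagged spots gave 2 called higher without Control 3, 5 with spike-in scaling and 1 with quantile scaling. Direction reversed for Npas2 (0.28 with spike-in scaling, with or without flagged spots, 0.054 with normexp, and -0.39 to 0.088 over arrays left out in turn) and for Per1 (0.24 with spike-in scaling, with or without flagged spots, and 0.19 over the arrays of high Xist). The other 7 tested members kept their direction in all settings run. The count of all genes called was 5754, against 3829 with no scaling, 2593 over the arrays of high Xist, which are fewer, and 4063 to 5159 with 1 array left out. The lower share of the calls was 65.6%, against 41.6% with no scaling and 54.1% over the arrays of high Xist. The causes were not tested beyond this. Cry1 has no value without DTG 4, its only DTG spot with no flag. No paired analysis was possible because the labels give no replicate numbers shared by the groups. With the slide column, which held 1 array of each group, as a block, 0 members were called, 4336 genes were called and Cry1 read 0.89 (limma adjusted p = 0.132). Per3, and Npas2 on 2 DTG arrays, were not well above background, which limits what can be read from them.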
